A study of Mus musculus with 30 samples.

Results

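Acta1 and Actc1, the genes of the skeletal and the cardiac alpha-actin, were followed in the cardiac ventricle of control and Sox6 KO mice at P1, P7, P14, P30 and P60. Every tested probe that carries either name, by the annotation of the array or by the supplementary tables of the study, was taken. This gave 1 probe for each gene, so 2 of the 6459 named genes, and the probes of 1 gene could not be set against each other. Control mice carried MCK-Cre, and Sox6 KO mice were Sox6loxp/loxp and carried MCK-Cre too, so a comparison of the genotypes leaves out what the Cre alone does. All were male mice of the FVB/B6 hybrid strain, with 3 biological replicates in each of the 10 groups and 1-colour Illumina bead arrays of total RNA, 30 in all. The Cre is driven by the promoter of muscle creatine kinase, which is active in striated muscle and gains activity around and after birth. No tested probe was named Sox6, so the deletion could not be checked on these arrays. Whole ventricle was measured, and fewer cells of a type cannot be told apart from less RNA per cell.

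Actin polymerises into the thin filament of the sarcomere, on which the myosin heads of the thick filament pull. Mammalian striated muscle uses a pair of closely similar sarcomeric actins: Actc1 is the main isoform of the heart, and Acta1 is the main isoform of skeletal muscle that the heart also makes, in amounts that vary with age and load. In rodents under pressure overload, Acta1 is among the genes that are switched on again together with the natriuretic peptides. Both genes are classical targets of serum response factor (SRF), which binds the CArG box, and of its cardiac coactivator myocardin. Sox6 is a transcription factor of the SoxD group that represses slow fibre genes in skeletal muscle.

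On the annotation of GRCm38.p6, Acta1 lies on chromosome 8 at 123891758 to 123894775 and Actc1 on chromosome 2 at 114047282 to 114052875, both on the minus strand. The 250 bases before each annotated start, taken from RefSeq for both genes, are shown because SRF sites close to the start are what the pair is known to share. Capitals mark the CArG box, the MCAT motif (CATTCC, bound by TEAD factors) and the TATA motif (TATAAA), searched on both strands.
Acta1, chr8:123894776-123895025, minus strand: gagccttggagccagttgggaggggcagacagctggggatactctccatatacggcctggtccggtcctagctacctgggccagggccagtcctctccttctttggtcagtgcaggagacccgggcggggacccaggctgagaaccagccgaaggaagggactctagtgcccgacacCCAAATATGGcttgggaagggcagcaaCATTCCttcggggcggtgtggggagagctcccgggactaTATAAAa
Actc1, chr2:114052876-114053125, minus strand: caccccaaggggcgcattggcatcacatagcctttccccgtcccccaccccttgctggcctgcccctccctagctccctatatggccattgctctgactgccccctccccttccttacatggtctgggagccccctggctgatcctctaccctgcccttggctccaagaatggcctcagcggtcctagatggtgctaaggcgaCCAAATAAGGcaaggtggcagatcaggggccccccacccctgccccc
The Acta1 window holds a CArG box at -73 to -64 from the start (CCAAATATGG), an MCAT motif at -46 to -41 and a TATA motif at -7 to -2. In the Actc1 window the CArG box is at -47 to -38 (CCAAATAAGG), with no match to the MCAT or the TATA motif. Its TATA motif lies 34 to 39 bases after the annotated start, so the annotated starts of the pair do not have the same place relative to the TATA motif. A CArG box was found in 1.47% of 32851 promoter windows of this length, an MCAT motif in 12.6%, a TATA motif in 12.4% and a CArG box together with a TATA motif in 0.25%. The letters AACAAT, a core that Sox factors bind, are in 9.42% of windows and in neither of these. The letters AGATAA of GATA factors, in 9.99% of windows, are in neither as well, and 2 E-boxes (CANNTG, in 66.2% of windows) are in the Acta1 window alone, at -238 and -221. None of the matches in a window overlaps another. GC content was 61.2% for Acta1 and 63.6% for Actc1.

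The median deposited intensity was 96.1 to 127, between 13997 and 17954 probes were above the negative controls, and arrays of 1 group correlated at 0.985 to 0.995 over all probes on the log2 scale. Of 10 markers of ventricular and general cardiomyocytes, 9 were measured and all 9 were above the negative controls on every array. Both actin probes were above the negative controls on all 30 arrays. The Acta1 probe had a deposited intensity between 677 and 6601, against thresholds of 103 to 139. The Actc1 probe was between 19133 and 52311, where the brightest probe of an array read 41856 to 61196. It was among the brightest in every sample, at rank 7 to 55 among all probes of the array that are not controls. Levels of different probes on such arrays are not comparable, so no statement is made on which actin was the more abundant.

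In control ventricle Acta1 rose late, between P14 and P30, to a level that it kept at P60. The log2 signal of Acta1 was 10.29, 9.72 and 9.79 in the control replicates at P1, 10.51, 10.61 and 10.63 at P7, and 10.61, 10.56 and 9.86 at P14. These 9 arrays lay within about 1 log2 unit of each other, and the P1 arrays were all below those of P7. At P30 the control arrays read 12.60, 12.18 and 12.43, and at P60 12.40, 12.81 and 12.63, so each of these 6 arrays was above every younger control array. The step from P14 to P30 was 2.06 on the log2 scale (SE 0.28, 4.17-fold, n = 3 arrays a group, limma adjusted p = 2.82e-06) and ranked 21 of 17997 probes by absolute change, in a comparison where 32.3% of probes passed an adjusted p of 0.05. From P1 to P60 Acta1 rose by 2.68 (SE 0.28, 6.43-fold, limma adjusted p = 5.82e-09), where 54.8% of probes passed. The other steps between neighbouring ages did not pass. They were 0.65 from P1 to P7 (limma adjusted p = 0.10, 95% interval 0.07 to 1.23, 24.6% of probes passed), -0.24 from P7 to P14 (95% interval -0.82 to 0.35, 19.4% passed) and 0.21 from P30 to P60 (95% interval -0.37 to 0.80, 21.1% passed).

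In the Sox6 KO ventricle no change of Acta1 with age passed the test. The KO arrays read 11.14, 10.78 and 10.25 at P1, 10.65, 10.29 and 9.78 at P7, and 10.74, 10.16 and 10.65 at P14. At P30 they read 11.34, 10.67 and 10.97, and at P60 11.63, 10.44 and 10.13. The 15 KO arrays thus lay between 9.78 and 11.63, below every control array of P30 and P60, and replicate 1 of P60 was the highest of them. The step from P14 to P30 was 0.48 (SE 0.28, limma adjusted p = 0.199, 95% interval -0.11 to 1.06, 36.7% of probes passed), and P60 differed from P1 by 0.01 (95% interval -0.57 to 0.60, limma adjusted p = 0.974, 58.6% passed). The other KO steps of Acta1 were -0.48 from P1 to P7, 0.28 from P7 to P14 and -0.26 from P30 to P60, where 25.9%, 27.1% and 18.1% of probes passed. A change over all 5 ages passed limma's F test for Acta1 in control (adjusted p = 1.19e-09, 69.6% of probes passed) and not in KO (adjusted p = 0.157, 74.4% of probes passed). The interval of the KO step, with no adjustment, ends at 1.06, and that of the control step starts at 1.48. The steps themselves were compared as an interaction, given below (limma adjusted p = 0.0341). Its call was lost without any single one of 7 of 12 arrays.

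The genotypes differed in Acta1 at P30 and P60. At P30 KO minus control was -1.41 on the log2 scale (SE 0.28, 2.66-fold lower, 95% interval -1.99 to -0.83, limma adjusted p = 0.00189), and at P60 it was -1.88 (SE 0.28, 3.68-fold lower, 95% interval -2.47 to -1.30, limma adjusted p = 8.50e-05). At P30 6.85% of the probes passed an adjusted p of 0.05 and 3.69% were lower in KO, and at P60 4.52% passed and 2.39% were lower. The 3 KO arrays were below the 3 control arrays at both ages, which held in either direction for 24.1% of probes at P30 and 18.5% at P60. By absolute change Acta1 ranked 29 at P30 and 13 at P60 of 17997. Both differences also met the rule of the study's methods, an adjusted p under 0.01 with at least 1.5-fold, as did 1.49% of probes at P30 and 1.04% at P60.

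At the 3 younger ages Acta1 did not pass between the genotypes. The KO mean was higher by 0.79 at P1 (SE 0.28, 95% interval 0.21 to 1.38, limma adjusted p = 0.0561, 16.7% of probes passed), with KO replicate 3 at 10.25 just below control replicate 1 at 10.29. Without control replicate 1 of P1 the difference was 0.97 and passed (limma adjusted p = 0.0265), and without KO replicate 3 of P1 it was 1.03 and passed (limma adjusted p = 0.0313). At P7 it was -0.34 (95% interval -0.93 to 0.24, limma adjusted p = 0.654, 5.4% passed) and at P14 0.17 (95% interval -0.41 to 0.76, limma adjusted p = 0.881, 2.59% passed). The arrays of the genotypes overlapped at all 3 of these ages.

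**Figure D1:**
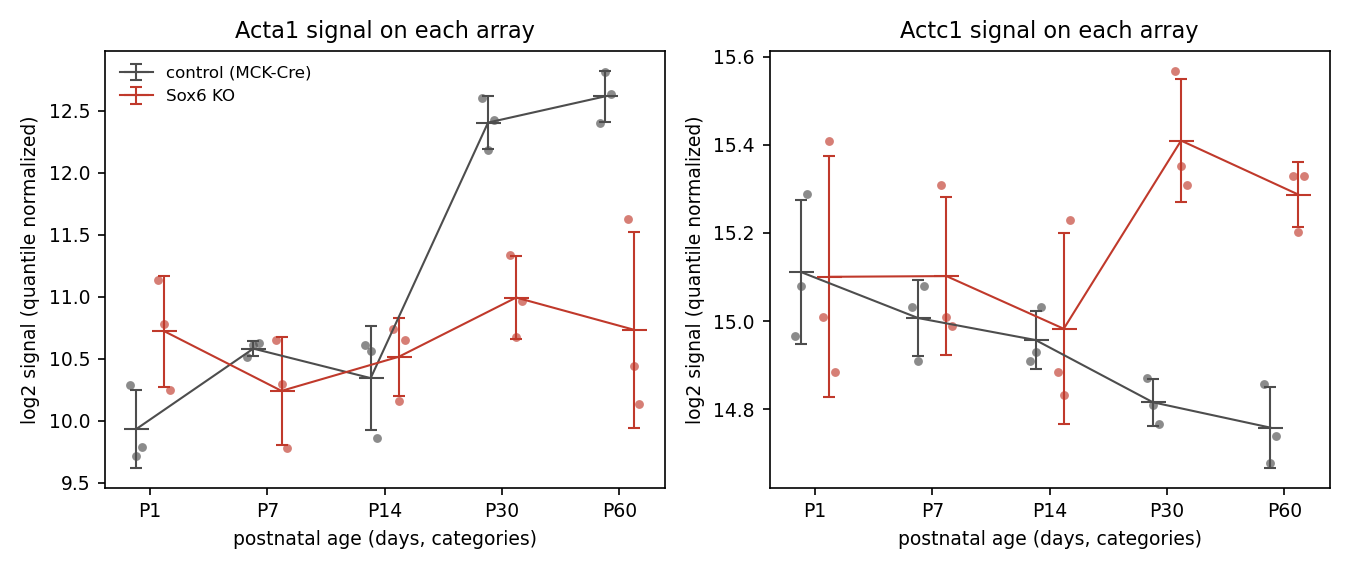
Log2 signal of the Acta1 probe (left) and the Actc1 probe (right) by postnatal age, with ages as categories. Points are single arrays, and the bars are the mean and SD of 3 arrays in control (grey) and Sox6 KO (red). Acta1 rises to about 12.4 and 12.6 in control at P30 and P60 while the KO stays near 11, and Actc1 falls slowly in control and stands at 15.3 to 15.4 in KO at those ages. The y axes do not start at 0 and differ in range.

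Actc1 took a different course. In control its log2 signal was 14.97, 15.08 and 15.29 at P1, 15.03, 14.91 and 15.08 at P7, and 14.91, 14.93 and 15.03 at P14. It read 14.87, 14.81 and 14.77 at P30, and 14.86, 14.68 and 14.74 at P60. The mean of Actc1 was lower at each age than at the one before, and no step between neighbouring ages passed the test. From P1 to P60 Actc1 fell by 0.35 in control (SE 0.11, 1.28-fold, limma adjusted p = 0.0108), a call that was lost without control replicate 3 of P1 (-0.27, limma adjusted p = 0.0826). In that comparison 54.8% of probes passed, and 36.0% had a larger absolute change than Actc1. The F test of Actc1 over the control ages gave an adjusted p of 0.0462 in limma, where 69.6% of probes passed.

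In KO the Actc1 signal was 15.01, 15.41 and 14.88 at P1, 15.31, 15.01 and 14.99 at P7, and 14.88, 14.83 and 15.23 at P14. It was 15.57, 15.35 and 15.31 at P30, and 15.33, 15.20 and 15.33 at P60. The arrays of P30 were all above those of P14, and the step of 0.43 between them passed the test (SE 0.11, 1.34-fold, limma adjusted p = 0.00441), in a comparison where 36.7% of probes passed. P60 stood 0.19 above P1 in KO (limma adjusted p = 0.168, 58.6% of probes passed), and without KO replicate 2 of P1 this was 0.34 and passed (limma adjusted p = 0.0116). The F test over the KO ages gave an adjusted p of 0.0118 in limma, where 74.4% of probes passed.

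Between the genotypes Actc1 was higher in KO at P30 and P60, the ages at which Acta1 was lower. The difference was 0.59 at P30 (SE 0.11, 1.51-fold, 95% interval 0.36 to 0.83, limma adjusted p = 0.00131) and 0.53 at P60 (SE 0.11, 1.44-fold, 95% interval 0.29 to 0.76, limma adjusted p = 0.00478). At P30 3.16% of probes were higher in KO at an adjusted p of 0.05, and at P60 2.13%. All KO arrays were above all control arrays at both ages, which held for 11.8% of probes at P30 and 9.24% at P60. The same order held in the deposited intensities before normalization, with KO arrays at 41797 to 46606 and controls at 29320 to 32256 at P30, and KO arrays at 28416 to 29054 and controls at 19133 to 22630 at P60. Tested without normalization between arrays, the differences were 0.51 (limma adjusted p = 0.0548) and 0.45 (limma adjusted p = 0.136) and did not pass. The rule with at least 1.5-fold took Actc1 at P30 and not at P60. Being lower in KO at both ages was found for 0.589% of probes and being higher at both for 0.895%.

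At the younger ages the Actc1 arrays of the genotypes overlapped. The difference of Actc1 was -0.01 at P1 (95% interval -0.25 to 0.23, limma adjusted p = 0.968), 0.10 at P7 (95% interval -0.14 to 0.33, limma adjusted p = 0.793) and 0.03 at P14 (95% interval -0.21 to 0.26, limma adjusted p = 0.968). Before adjustment these intervals do not reach the 0.59 of P30 or the 0.53 of P60. The interval of P7 does overlap that of P60, which starts at 0.29. A change of the difference with age is tested below as an interaction.

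**Figure D2:**
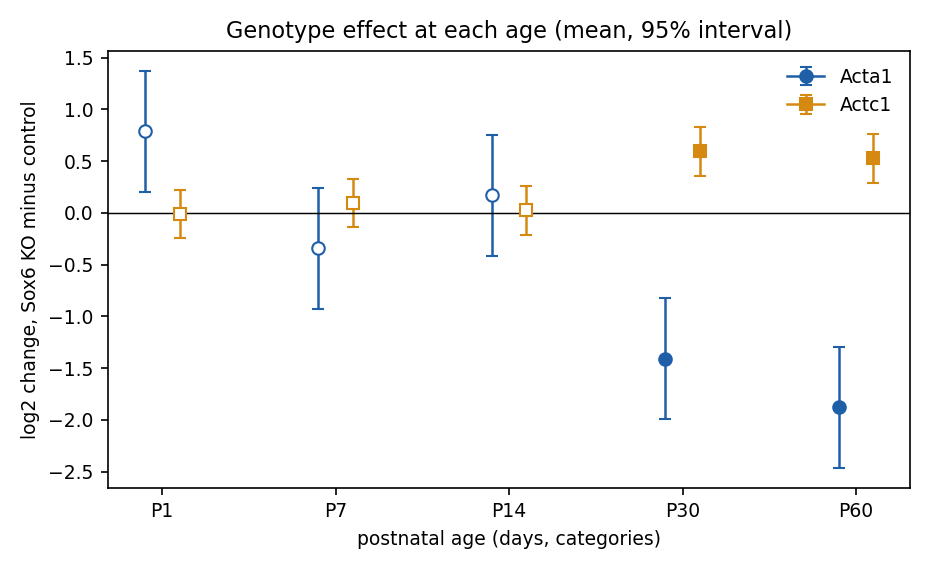
Difference of the log2 signal, Sox6 KO minus control, for Acta1 (blue circles) and Actc1 (orange squares) at each age, with unadjusted 95% intervals from limma (3 arrays against 3). Filled symbols passed an adjusted p of 0.05. Acta1 is at -1.41 and -1.88 at P30 and P60 and Actc1 at 0.59 and 0.53, and no younger age passed for either gene.

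Whether the difference between the genotypes itself changed with age was tested as an interaction. For Acta1 it was 2.67 lower at P60 than at P1 (SE 0.40, limma adjusted p = 1.24e-04), rank 3 of 17997 by absolute value, where 9.46% of probes passed. Set against P14, the Acta1 difference of P30 was lower by 1.58 (SE 0.40, limma adjusted p = 0.0341, 1.94% of probes passed). This contrast was added after the values were seen, and its call was lost without any single one of 7 of its 12 arrays (control P14 replicate 3, control P30 replicates 1 and 3, KO P14 replicates 1 and 3, KO P30 replicates 2 and 3), with values from -1.57 to -1.34 and adjusted p from 0.0637 to 0.110. For Actc1 the difference was 0.54 higher at P60 than at P1 (SE 0.16, limma adjusted p = 0.0346). That call was lost without any single one of 8 of 12 arrays (control P1 replicates 2 and 3, control P60 replicates 2 and 3, KO P1 replicates 1 and 3, KO P60 replicates 1 and 3), with values from 0.43 to 0.56 and adjusted p from 0.0557 to 0.120. Between P14 and P30 it was 0.57 for Actc1 and did not pass (limma adjusted p = 0.0679). Limma's F test over all 5 ages passed for Acta1 (adjusted p = 1.45e-04) and Actc1 (adjusted p = 0.0132), as for 13.8% of probes. Averaged over the 5 ages, Acta1 was 0.53 lower in KO (SE 0.13, limma adjusted p = 0.00380) and Actc1 0.25 higher (SE 0.05, limma adjusted p = 0.00106), where 15.3% of probes passed.

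The signal of Acta1 over that of Actc1, taken within each array, shows how unequally the pair changed. The log2 ratio was -4.68, -5.36 and -5.50 in control at P1, and -2.46, -1.86 and -2.11 at P60. The KO arrays read -3.87, -4.63 and -4.63 at P1, and -3.70, -4.76 and -5.19 at P60. At P30 it was -2.27, -2.63 and -2.34 in control and -4.23, -4.68 and -4.34 in KO. The 6 control arrays of P30 and P60 were above all other arrays, of which the highest was KO replicate 1 of P60. KO minus control was -2.0 at P30 and -2.41 at P60, each with p = 0.1 in the exact two-sided permutation test, the smallest that 3 against 3 allows. It was 0.80 at P1 (exact p = 0.1), -0.44 at P7 (exact p = 0.1) and 0.15 at P14 (exact p = 0.8), and adjusted over the 5 ages these p-values were 0.125, except 0.8 at P14. Averaged over the ages the difference was -0.78 (exact two-sided permutation test with labels exchanged within age, p = 0.0125, over 3200000 arrangements).

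**Figure D3:**
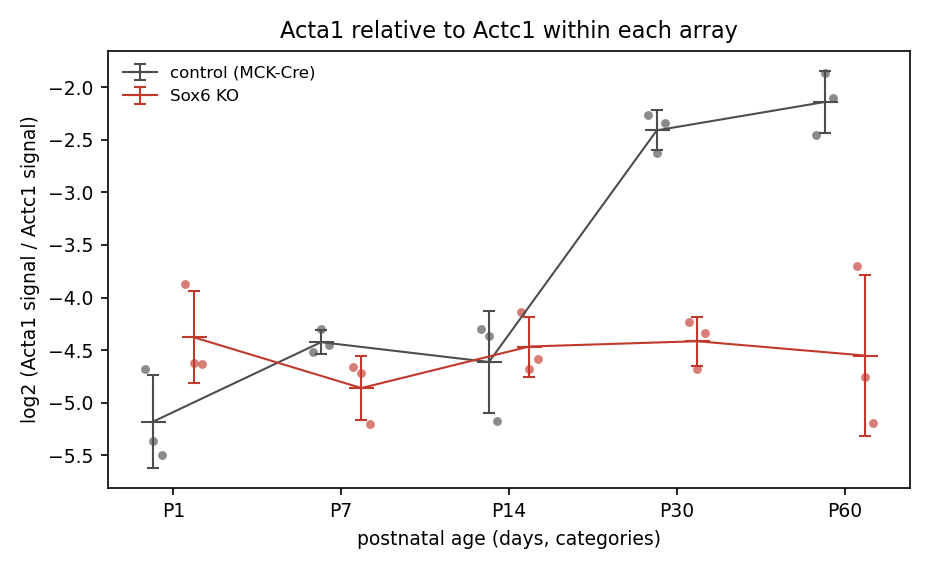
Log2 of the Acta1 signal over the Actc1 signal on each array by age, with ages as categories. Points are arrays, and bars are the mean and SD of 3 arrays. The control means are -2.41 at P30 and -2.14 at P60, and the KO means stay at -4.42 and -4.55. The ratio of 2 probes has no absolute meaning, and only its changes are read.

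Ordered by mean, the Acta1 signal was highest in control P60 and control P30, whose arrays overlapped. Next came KO P30, 1.41 below control P30 and with no overlap, and then 7 groups in which each neighbour in the order overlapped the next, down to control P1 at 9.93. For Actc1 the order ran from KO P30 and KO P60 at 15.41 and 15.29 to control P30 and control P60 at 14.82 and 14.76. Neighbours overlapped throughout except control P14 and control P30. Replicates of 1 group varied more in Acta1 than in most probes. Its moderated SD within groups was 0.35, at percentile 99.7 of the tested probes, against 0.14 at percentile 85.0 for Actc1. Limma draws this SD toward a value common to all probes, so it is not the plain SD of the replicates.

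Of the other actins, the smooth muscle actin Acta2 and the cytoplasmic actin Actb were measured, and no probe of Actg1 or Actg2 was named. Neither Acta2 nor Actb passed between the genotypes at any age. For Acta2 the difference was 0.11 at P30 and 0.15 at P60 (SE 0.17), and for Actb it was -0.12 and 0.22 (SE 0.10), with limma adjusted p from 0.288 to 0.791. Both fell in control from P1 to P60, with changes of -2.50 for Acta2 (limma adjusted p = 5.14e-13) and -0.73 for Actb (limma adjusted p = 9.25e-07). In KO they fell as well, with -2.46 and -0.46 (limma adjusted p = 5.93e-13 and 4.63e-04). Of the 4 actins, Acta1 was higher and 3 were lower at P60 than at P1 in control, where 27.6% of all probes were higher and 27.2% lower, and the call of Actc1 was lost without 1 array. The probe sequences were not used here, so binding of a probe to the transcript of another actin could not be checked.

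**Figure D4:**
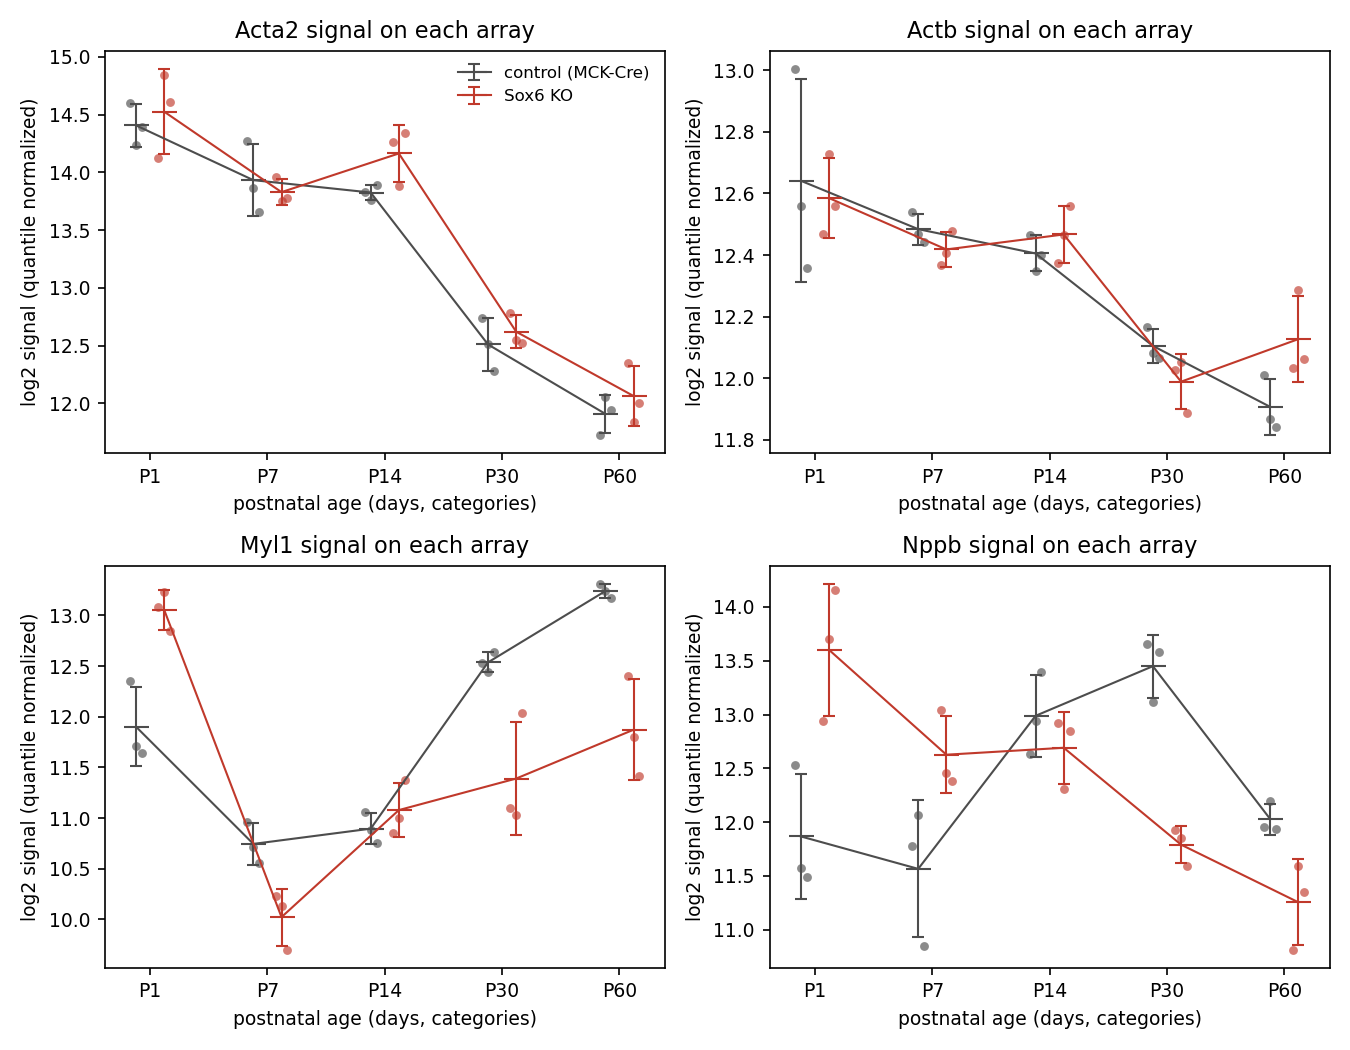
Log2 signal by age, with ages as categories, of Acta2 and Actb (top), and of Myl1 and Nppb (bottom), for control (grey) and Sox6 KO (red). Points are arrays, and bars are the mean and SD of 3 arrays. Acta2 and Actb fall with age in both genotypes without a difference that passed the test, and Myl1 is higher in KO at P1 and lower at P30 and P60. The y axes differ in range and do not start at 0.

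The thin filament holds tropomyosins and troponins along the actin, with tropomodulin at its pointed end. Of the 22 listed thin filament genes, 13 were measured. At P30 3 of these were higher in KO (Actc1, Tmod1 and Tmod4) and 2 lower (Acta1 and Tpm3), with a median over the list of 0.15 against 0.0010 over all probes. These counts include the 2 sarcomeric actins, and 3.16% of all probes were higher and 3.69% lower. Tmod1 and Tmod4, which cap pointed ends, were higher by 0.37 and 0.47 (limma adjusted p = 0.00623 and 7.35e-05), and the tropomyosin Tpm3 was lower (-0.43, limma adjusted p = 0.00924). At P60 3 were higher (Actc1, the tropomyosin Tpm4 by 0.39 and the slow skeletal troponin T Tnnt1 by 0.72) and Acta1 alone was lower, with a median of -0.011 against -0.0014, where 2.13% of all probes were higher and 2.39% lower. At P1 Tpm2 and Tpm4 were higher, and the cardiac troponins Tnni3 and Tnnc1 and Tmod1 were lower, at the age at which most probes passed (8.82% higher and 7.91% lower). Tmod1 thus passed in opposite directions at P1 (-0.40) and P30 (0.37). Acta1 had the widest change of the 13 at both P30 and P60.

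**Figure D5:**
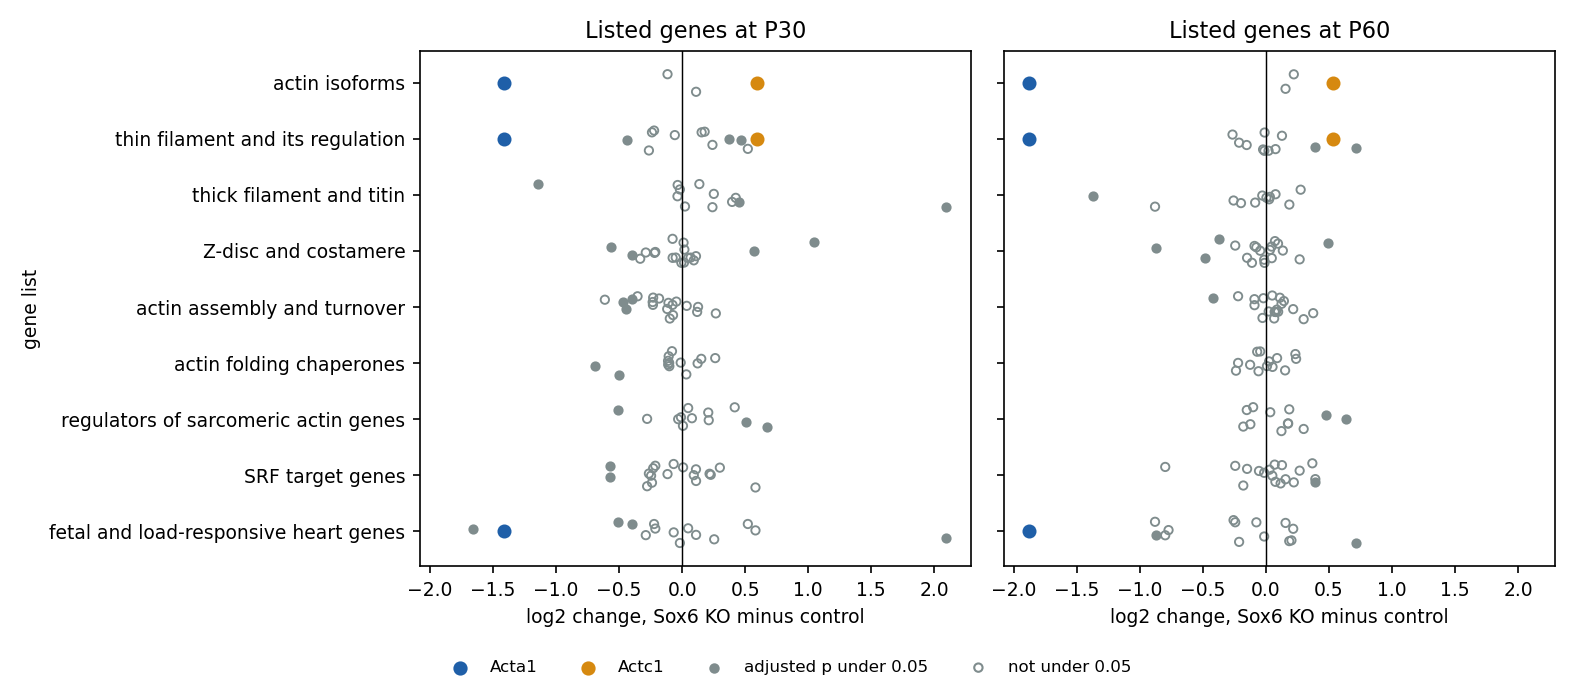
Log2 difference, Sox6 KO minus control, of each measured gene of 9 lists at P30 (left) and P60 (right), 1 row a list. Filled symbols passed an adjusted p of 0.05, Acta1 is blue and Actc1 orange, and vertical scatter within a row carries no value. A gene in several lists is drawn in each. Most listed genes lie within 0.5 of 0, with Acta1 at -1.41 and -1.88.

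Of 16 thick filament and titin genes 12 were measured. Myl1, an essential light chain of fast skeletal muscle that is also made in atria, was higher in KO at P1 by 1.15 (limma adjusted p = 7.40e-04) and lower at P30 (-1.15, limma adjusted p = 0.00151) and P60 (-1.37, limma adjusted p = 2.38e-04). The Myl1 arrays read 12.53, 12.44 and 12.64 in control and 11.10, 11.03 and 12.04 in KO at P30. At P60 the Myl1 arrays were 13.31, 13.24 and 13.17 in control and 12.40, 11.80 and 11.42 in KO. The KO arrays of Myl1 were below the controls at both ages, as for Acta1. All KO arrays lay below all control arrays for 12.4% of probes at P30 and 9.29% at P60. Myl1 was the sole thick filament gene to pass at P60, where 4.52% of all probes passed. At P30 Myh7b and Myl4 were higher by 0.45 and 2.09, and at P1 the heavy chain Myh6 and the M-band protein Myom1 were lower (-0.63 and -0.39). The shares of all probes were 3.16% higher and 3.69% lower at P30, and 8.82% higher and 7.91% lower at P1. Like Acta1, Myl1 rose in control from P14 to P30 (1.64, limma adjusted p = 2.56e-06), and its interaction of P60 against P1 was -2.52 (limma adjusted p = 1.69e-05). Across the 10 group means the Pearson correlation of Acta1 with Myl1 was 0.65, and it was 0.59 over the deviations of the 30 arrays from their group means. These points share arrays and scaling.

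At the Z-disc, which anchors the thin filaments, 19 of 29 genes were measured. Capzb, a subunit of the capping protein of barbed ends, was higher in KO at P30 (0.57) and P60 (0.49), and Pdlim3, which binds alpha-actinin, was lower (-0.56 and -0.49). Tcap, the titin cap, was lower at P1 (-0.89) and higher at P30 (1.05, limma adjusted p = 1.05e-04), and Xirp2, which binds actin at intercalated discs, was lower at P30 (-0.40). At P60 Pdlim5 (-0.37) and the stretch-responsive Ankrd1 (-0.87, limma adjusted p = 0.0349) were lower too. At P1 Ldb3 was lower as well as Tcap, and Csrp3 and Ankrd1 were higher, where 8.82% of all probes were higher and 7.91% lower. The shares of all probes were 3.16% higher and 3.69% lower at P30, and 2.13% higher and 2.39% lower at P60. The median over the list was -0.0064 at P30 and -0.015 at P60.

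Of 24 listed genes that assemble and turn over actin filaments, 19 were measured. None of the 19 was higher in KO at P30, where 3.16% of all probes were higher and 3.69% lower. Tmsb4x, which binds actin monomers, and the Arp2/3 subunits Arpc1b and Arpc5 were lower (-0.45, -0.47 and -0.40). The median over the list was -0.12, against 0.0010 over all probes. At P60 the formin Daam1 was lower (-0.42) and no gene was higher, where 2.39% of all probes were lower and 2.13% higher. At P1 Cfl2, the muscle cofilin, was higher by 0.61 (limma adjusted p = 2.12e-04), as were Arpc5 and the monomer-binding twinfilin Twf1. At that age 8.82% of all probes were higher and 7.91% lower. Among 13 measured genes of 16 that help fold actin and myosin, the prefoldin subunit Pfdn4 and the small heat shock protein Hspb8 were lower at P30 (-0.50 and -0.69) and none passed at P60.

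Of 25 regulators of sarcomeric actin genes, 12 were measured. Myocd, the coactivator of SRF, was higher in KO at P1 (0.92, limma adjusted p = 1.38e-04), P7 (0.70), P14 (0.67) and P60 (0.63, limma adjusted p = 0.0119), and stood at 0.42 at P30 (limma adjusted p = 0.108). Hopx, a homeodomain protein that holds SRF off its sites, was higher at P14 (0.35), P30 (0.67, limma adjusted p = 8.52e-06) and P60 (0.48, limma adjusted p = 8.67e-04). Srf itself passed at P7 alone (0.47, limma adjusted p = 0.0135), and Tead1, which binds MCAT motifs, passed at no age. Gata6 was higher at P1 (0.45) and P30 (0.50), and Rcan1, a calcineurin inhibitor, was higher at P14 (0.62) and lower at P30 (-0.51). At P1 Nkx2-5 was lower (-0.50), and Mef2c was higher at P1 (0.48) and lower at P7 (-0.48). Of the 12, 2 were higher and 1 lower at P7, where 3.02% of all probes were higher and 2.38% lower, and at P14 3 were higher and none lower, where the shares were 1.47% and 1.13%. The median over the list was 0.063 at P30 and 0.15 at P60.

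Of 27 further SRF targets, 18 were measured. At P30 Tagln2 and Pdlim7 were lower (both -0.57) and none was higher, and at P60 Tpm4 alone was higher and none was lower, among the 6.85% and 4.52% of all probes that passed at these ages. With age in control 13 of the 18 were lower at P60 than at P1 and 2 higher (Fhl2 and Junb), where 27.2% of all probes were lower and 27.6% higher. The median of the list was -0.80 against -0.0059 over all probes. Acta1 is a classical SRF target that was not put on this list, and its rise with age ran against that median.

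Acta1 was counted among 23 fetal and load-responsive heart genes, of which 15 were measured. At P1 5 were higher in KO and none lower, with a median of 0.48 against -0.0063 over all probes, of which 8.82% were higher and 7.91% lower. They were Nppb, the B-type natriuretic peptide (1.74, limma adjusted p = 2.21e-04), Ankrd1 (0.82), Tpm2 (0.48), the matricellular Ccn2 (1.46) and the lectin Lgals3 (0.75). At P30 4 were lower (Acta1 itself, Nppb, Xirp2 and Rcan1) and Myl4 alone was higher, with a median of -0.067 against 0.0010 over all probes. Of all probes 3.69% were lower and 3.16% higher at P30. At P60 Acta1 and Ankrd1 were lower and Tnnt1 was higher, with a median of -0.21 against -0.0014 over all probes. Of all probes 2.39% were lower and 2.13% higher at P60. Nppb fell furthest behind at P30 (-1.66, limma adjusted p = 7.04e-04), with arrays at 13.66, 13.11 and 13.58 in control and 11.93, 11.85 and 11.59 in KO. Its value at P60 was -0.77 (limma adjusted p = 0.170). The A-type peptide Nppa did not pass at these ages (0.25 at P30 and 0.20 at P60). In the interaction of P60 against P1, 6 of the 15 passed and all 6 were lower (Acta1, Nppb, Ankrd1, Tpm2, Ccn2 and Lgals3), in a comparison where 5.13% of probes were lower.

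Markers of other cells were read beside these results, as summed normalized signal. The ventricular markers summed to 232917 to 244401 in control and 239967 to 243286 in KO at P30, and to 234045 to 248273 and 235474 to 240728 at P60, so their ranges overlapped at both ages. At P1 they were lower in KO (177628 to 185426 against 189983 to 211457). Atp2a2 of this list had the identical log2 signal of 15.69 on arrays of both genotypes at P30 and P60. Quantile normalization gives the brightest probes the same values on every array, so sums of bright markers had little room to differ. Actc1, at 14.68 to 15.57, lay near that top as well. A narrowing of its differences at the bright end of the arrays was not tested. Of 7 atrial markers 6 were measured. They summed to 100178 to 108225 in KO against 40736 to 92490 in control at P1, where the Acta1 mean of KO was higher. Their ranges overlapped at P30, and at P60 they were 8697 to 11343 in KO against 13758 to 16606 in control, a list that includes Myl1. Of the 5 atrial markers counted, Myl1 alone passed at P60, and the other 4 did not. The atrial light chain Myl4 was higher in KO at P30 (2.09, limma adjusted p = 0.00466), and Myl7 stood at 1.46 (limma adjusted p = 0.0512), with KO arrays at 8.28, 7.52 and 9.65 and controls at 7.15, 6.81 and 7.11. Myl7 is named only through the table of genes that the study selected on these arrays, and the atrial sums include it. Of 13 skeletal muscle markers only Myh8 and Ckm were measured, and neither passed at P30 or P60, their sums overlapping at both ages.

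Some non-muscle markers also differed at P30, where 3.69% of all probes were lower in KO and 3.16% higher. For 24.1% of single probes the arrays of the genotypes did not overlap at that age. The 5 measured fibroblast markers summed to 18162 to 19617 in KO against 20853 to 22856 in control, with 2 lower and none higher. The 4 macrophage markers summed to 3085 to 3280 against 4346 to 5437, with 2 lower. Of 6 endothelial markers Cldn5 alone was lower at P30, and of the red blood cell markers Hba-a1. At P60 the macrophage sums overlapped, and so did those of smooth muscle, fibroblast and red blood cell markers. The fibroblast marker Col3a1, lower in KO at P30, was higher at P60. The part of cell composition in the differences of Acta1 and Actc1 was not tested.

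Of 3978 named genes whose group means span at least 1.5-fold, those most like Acta1 over the 10 group means were Thrsp, Mrpl50, Abhd6, Lmo2 and Tmem38b, with Pearson correlations of 0.89 to 0.91. Thrsp is named only through a table of genes that the study selected on these arrays. Lmo2, a LIM-only cofactor of blood and vessel development, was lower in KO at P30 (-0.40, limma adjusted p = 0.0103) and P60 (-0.47, limma adjusted p = 0.00366), and so was Tmem38b, a channel of the endoplasmic reticulum (-0.31 and -0.35, limma adjusted p = 0.0239 and 0.0114). Most opposite to Acta1 were Ints10, BC026585, Emilin2, Mmd and Gnb2, at -0.92 to -0.88. For Actc1 the likeness was weaker, at 0.75 to 0.83 for Hyi, Rpain, 2810001G20Rik, Glrx2 and Ccdc124. Rpain, which carries replication protein A into the nucleus, was higher in KO at P30 (1.05, limma adjusted p = 8.10e-08) and P60 (0.97, limma adjusted p = 2.56e-07). Opposite to Actc1, at -0.79 to -0.75, were Tfpi, Tmc7, Cd59a, Ublcp1 and Dnajc10. Between Acta1 and Actc1 the correlation was -0.55 over the group means and 0.20 over the deviations from them. All these points come from the same 30 arrays, scaled together, and the genes were picked for their likeness.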

How the data were processed

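The authors deposited linear signal intensities of Illumina MouseWG-6 v2.0 arrays, not normalized between arrays and exported with IlluminaExpressionFileCreator, and intensities of 6784 probes that they had filtered and quantile normalized. The sources used here name neither that program's version nor its background setting. Of 46255 rows, 974 were control rows, and 936 of these were taken by their IDs as negative controls, since detection p-values are empty. A probe was tested if in some group its 3 arrays all exceeded the negative controls by 2 SD over their mean (17997 probes). Log2 intensities were quantile normalized over the 30 arrays and fitted in limma 3.58.1 (R 4.3.3) with a mean for each group, 20 residual degrees of freedom, two-sided tests and Benjamini-Hochberg adjustment over all probes at 0.05. The fit was tested on simulated data.

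Names from the platform annotation and the supplementary tables cover 6618 tested probes. The 209 that only S4 Table names, picked by the study on these arrays, were left out of list counts. The summed marker signals keep such genes, namely Myl7 among the atrial and Hbb-b1 among the red blood cell markers. For a gene with several probes, the one with the highest mean was used. The genes named are the actins, the members of list counts of 5 or fewer, up to 4 members of larger counts with the widest changes, and the 5 most and 5 least alike by correlation. Srf, Tead1, Nppa, Myl7 and Myocd at P30 were named after their values were seen. The members and lists were chosen with earlier results of these data known. Alternatives were other scalings and filters, normexp, the authors' table, array weights, a replicate block, only the groups compared, and leaving out each array. Each biological replicate is 1 array, and 3 arrays a group limit the precision. The study's methods describe hybridizing each replicate in triplicate, and no such repeats were analysed here.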

Additional observations from a re-analysis of the deposited data

Results flagged for a closer look

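The genotype difference of Acta1 changed with age. It was -2.67 on the log2 scale at P60 relative to P1 (limma interaction, adjusted p = 1.24e-04) and -1.58 at P30 relative to P14 (limma interaction, adjusted p = 0.0341). For Actc1 it was 0.54 at P60 relative to P1 (limma interaction, adjusted p = 0.0346), with the opposite sign. These 3 were taken up because a test of the difference between the ages itself passed. The Acta1 contrast of P30 against P14 was added after the values were seen. Its call was lost without any single one of 7 of 12 arrays, and that of Actc1 without any single one of 8 of 12.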

How the results depend on the processing

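For 44 values, 418 values were computed under other settings and 408 with 1 array left out. The side of the threshold was kept, with no change of sign in a value that passed, in 390 and 387 of them. A value that passed in neither setting could change its sign and still be counted as kept. Acta1 at P30 and P60 passed under each, at -1.60 to -1.39 and -2.14 to -1.86. Values below are log2 differences with limma adjusted p. Without normalization between arrays the KO change of P60 against P1 turned for Acta1 (-1.09, 0.00401) and Actc1 (-0.58, 4.97e-04). Actc1 no longer passed at P30 (0.51, 0.0548), at P60 (0.45, 0.136), in its interaction of P60 against P1 (0.48, 0.316) or in its F test over ages (adjusted p = 0.164), nor did the Acta1 interaction of P30 against P14 (-1.47, 0.354). Other steps now passed: Acta1 P60 against P30 in KO (-0.80), and Actc1 P60 against P30 in control (-0.53) and KO (-0.60) and P14 against P7 in KO (-0.56). Counts of probes past the threshold between the genotypes were then 391 (P7), 855 (P14), 335 (P30) and 198 (P60), and 15210 and 2359 for control P60 against P1 and P30 against P14, and 234 for the interaction of P60 against P1, where the normalized fit gave 971, 467, 1233, 814, 9862, 5820 and 1702.

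The Actc1 interaction of P60 against P1 missed with median scaling (0.43, 0.0721), normexp (0.54, 0.0755), no filter (0.54, 0.0665), the authors' table (0.46, 0.0782) and only the groups compared (0.49, 0.129). The Acta1 interaction of P30 against P14 missed with normexp (-1.64, 0.0597) and no filter (-1.58, 0.0748). Acta1 at P1 passed with only probes above background on all 30 arrays (0.80, 0.0396; 618 probes passed at P7 then, of 10820), the authors' table (0.80, 0.0338) and array weights (0.94, 0.00398). Array weights also let Acta1 (0.77) and Actc1 (-0.24) pass from P1 to P7 in control, and the Actc1 interaction of P30 against P14 (0.56). With only the groups compared, Acta1 from P1 to P7 (0.65, 0.0113) and the latter interaction (0.60, 0.0276) passed. With the replicate number as a block, Acta1 passed at P1 (0.79, 0.0194) and from P1 to P7 in control (0.65, 0.0415), and no other call on the actins changed. The numbers did not pair the arrays: 1 of 15 same-numbered pairs correlated above 0.1 (range -0.23 to 0.11), and 3 matched their own number best. Causes were not tested.

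With 1 array left out, the ranges were 0.58 to 1.03 for Acta1 at P1, 0.54 to 0.83 for Acta1 from P1 to P7 in control, -1.76 to -1.34 for its interaction of P30 against P14, 0.43 to 0.69 and 0.49 to 0.69 for the Actc1 interactions of P60 against P1 and P30 against P14, and -0.43 to -0.27 in control and 0.079 to 0.34 in KO for Actc1 from P1 to P60. At P30 and P60 both genes passed without any 1 array (Acta1 -1.58 to -1.25 and -2.33 to -1.58, Actc1 0.51 to 0.64 and 0.49 to 0.58). A slide block was not run, since no slide was given.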

Other observations

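Of 5168 named genes with a within-group SD of at least 0.1, those most like Acta1 over the deviations of the 30 arrays from their group means were Asb10, Hsd17b7, Itfg2, Fra10ac1 and Vps13a, with Pearson correlations of 0.65 to 0.76. Most opposite were Kdm7a, Sik1, Synpo2l, Klf6 and Retreg1, at -0.74 to -0.69. Synpo2l is an actin-binding protein of the Z-disc, and Klf6 and Sik1 are genes that respond early to stimuli. For Actc1 the most alike were Alkbh3, Metap1d, Fchsd2, Ccz1 and Eif4e2, at 0.62 to 0.67, and the most opposite Grina, Id1, Rbm12, Ddx6 and Lyz1, at -0.67 to -0.63. Between Actc1 and Myocd this correlation was 0.59. These are the extremes of 5168 correlations over 30 arrays that share their scaling, on 20 residual degrees of freedom, and no value for unrelated genes was computed, so no relation is read from them.

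At P14, an age without a passing difference in either sarcomeric actin, the immediate early gene Egr1 was lower in KO (-1.60, limma adjusted p = 7.23e-04), and the matricellular Ccn1 was at -1.28 (limma adjusted p = 4.39e-06). Both are SRF targets, and 2 of the 18 measured were lower and none higher at that age, against 1.13% and 1.47% of all probes.

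At P7, where Acta1 stood at -0.34 without passing, 3 of the 15 measured fetal and load-responsive genes were higher in KO, 1 was lower and 11 did not pass, against 3.02% of all probes higher and 2.38% lower. The higher ones were Nppa (1.38, limma adjusted p = 0.00684), Nppb (1.06, limma adjusted p = 0.0350) and the atrial light chain Myl4 (2.19, limma adjusted p = 0.00377), and the lower one was Lgals3 (-0.37, limma adjusted p = 0.0376). Of 5 atrial markers counted, Myl4 and Nppa passed. Myl7, left out of the counts because it is named through a table of genes that the study selected on these arrays, stood at 2.31 (limma adjusted p = 0.00171).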
